A study of Mus musculus with 16 samples.

Results

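Mycl1 encodes L-Myc, a member of the MYC family of transcription factors, which pair with MAX and bind E-box sequences in promoters. MYC proteins are known for driving genes of ribosome production, protein synthesis and nucleotide synthesis, and the human gene MYCL was first found in small cell lung cancer, where it is amplified in some tumors. Small cell lung cancer is a fast-growing neuroendocrine tumor of the lung. Here 4 mouse tumors with a high Mycl1 transcript level were compared with the other 12 tumors of the same series, of 16 in all. The Mycl1-high tumors were chosen by their own Mycl1 level: its estimated count, scaled to CPM by the sum of its column, was 300 or more.

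All 16 tumors were Trp53-/-; Rb1-/-, carried a CRISPR-mediated mutation in p107 (gene Rbl1) or p130 (gene Rbl2), and arose in the mixed C57BL/6;129/Sv strain. Mouse ages were not stated, tumor formation had been started by deleting Trp53 and Rb1, and tumors without one of these 2 mutations were not analysed here. The 4 Mycl1-high tumors were sgp107_6627T2 and sgp107_6629T2 with mutated p107, and sgp130_6638T4 and sgp130_6697T1 with mutated p130. The other 12 tumors were 6 with mutated p107 and 6 with mutated p130. The number in a title was read as the mouse, which gives 7 mice, and the 4 Mycl1-high tumors then came from 4 different mice, each of which also gave at least 1 of the other tumors.

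**Figure D1:**
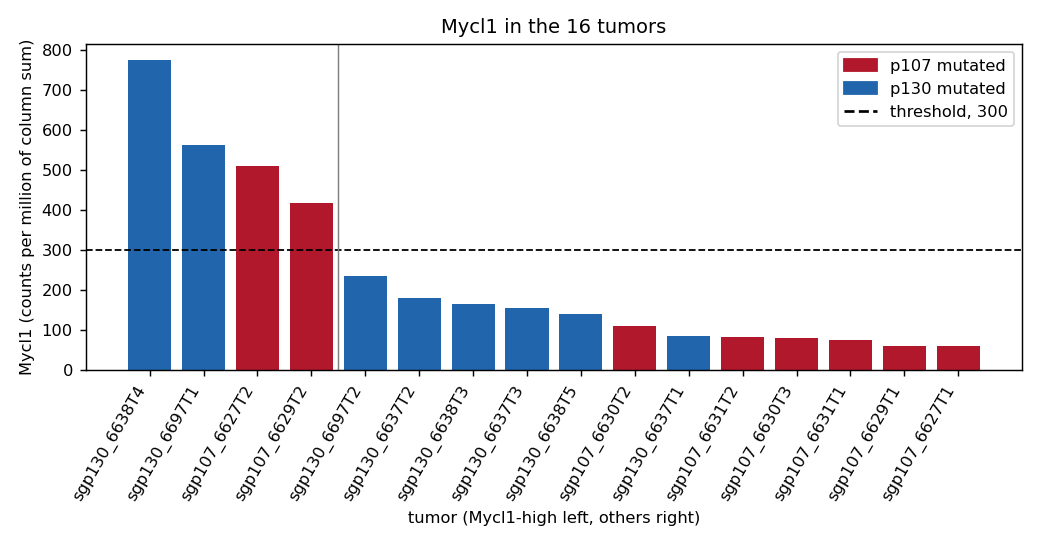
Mycl1 level (vertical axis, CPM of the column sum) in each of the 16 tumors (horizontal axis), with the Mycl1-high tumors left of the grey line and the dashed line at 300. The 4 Mycl1-high tumors lie between 419 and 777 CPM and the other 12 between 60.8 and 236 CPM.

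The Mycl1 levels chose the groups and are a description only. Mycl1 lay at 777 CPM in sgp130_6638T4, 562 CPM in sgp130_6697T1, 512 CPM in sgp107_6627T2 and 419 CPM in sgp107_6629T2. The other tumors reached 236 CPM at most, in sgp130_6697T2, so sgp107_6629T2 and sgp130_6697T2 were the tumors just inside and just outside the threshold. The lowest of the other tumors were sgp107_6627T1 and sgp107_6629T1, both with 60.8 CPM. All levels of other genes below are CPM scaled with TMM factors, a correction for library composition.

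The libraries held 16477381 to 34620979 estimated counts in the Mycl1-high tumors and 12700334 to 25544425 in the other tumors. Both groups carried neuroendocrine transcripts: Insm1, a neuroendocrine transcription factor, lay at 321 to 564 CPM in Mycl1-high and 231 to 592 CPM in other tumors, and Chga, a granin of secretory granules, at 301 to 1745 CPM in Mycl1-high and 266 to 724 CPM in other tumors. The library of sgp107_6627T1, one of the other tumors, stood apart, with the neuropeptide gene Calca at 117 CPM and the adhesion gene Cdh1 at 26.2 CPM. Without this library 29 genes were called higher and 0 lower in the comparison below, against 22 and 0 with it, and the 22 were among the 29. Rbl2 lay at 37.8 to 128 CPM in Mycl1-high and 15.6 to 108 CPM in other tumors. By mutated gene, Rbl2 lay at 55.4 to 128 CPM in p107 and 15.6 to 54.3 CPM in p130 tumors, without overlap. Rbl1 lay at 64.2 to 246 CPM in p107 and 60.1 to 121 CPM in p130 tumors. Transcripts per cell and the share of tumor cells cannot be told apart in these bulk samples.

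Across the transcriptome, the genes that edgeR called higher in the Mycl1-high tumors lay mostly beside Mycl1 on chromosome 4. edgeR's quasi-likelihood test, with the mutated gene as covariate and Benjamini-Hochberg adjustment, called 22 of 15561 genes higher in Mycl1-high tumors (0.141%) and 0 lower (0%) at an adjusted p under 0.05. Of the 22 genes, 17 lie in a single run of neighbouring genes around Mycl1, from Ppt1 to Meaf6, and 5 lie elsewhere or have no place in the gene order. Mycl1 itself was taken out before adjustment. Without adjustment, 707 genes had a p under 0.05 (4.54%), of which 452 genes were higher (2.9%) and 255 lower (1.64%). DESeq2, which called 51 genes higher and 7 lower, included all 22, and 21 of its 58 lie in the run. Leaving out 1 tumor at a time changed the count most without sgp130_6638T4, with 7 genes higher and 4 of them in the run. The count was 13 without sgp130_6638T5 and 14 without sgp107_6630T3. Without sgp107_6629T2 most called genes lay outside the run: of 18 called in either direction, 7 lay in it and 11 outside. Of these 18, 11 were among the 22, and the median log2 fold change over the run was 1.21.

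The calls depend on how tumors of a mouse are treated. With the mouse as a block, which compares each Mycl1-high tumor with the other tumors of its own mouse, 0 genes passed in either direction (481 higher and 472 lower at an unadjusted p under 0.05), and the lowest adjusted p was 0.083, for Tmem132b and Epha5 (edgeR). In that fit the median log2 fold change of the genes from Ppt1 to Meaf6 was 1.42, with 33 of 35 above 0, against a median of 0.01 over all genes. In limma's voom with a random effect for the mouse, 16 genes were higher and 0 lower, of which 15 are among the 22.

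The neighbours of Mycl1 were examined first, as the 10 annotated protein-coding genes on each side in gene order. Of these 20 genes, 18 had a row in the table, 11 passed the filter on low counts and 7 were called higher. The 7 untested genes with a row had at most 2.47 CPM in any tumor. Of the 11 tested, 10 had a log2 fold change above 0, and their median was 1.88, against -0.03 over all 15561 genes.

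On one side of Mycl1, the nearest tested genes were Mfsd2a, Cap1 and Ppt1. Mfsd2a, which encodes a transporter of lysophospholipids, lay at 7.35, 4.46, 2.33 and 8.55 CPM in sgp107_6627T2, sgp107_6629T2, sgp130_6638T4 and sgp130_6697T1, against 0.232 to 1.27 CPM in the other tumors (median 0.494). The 4 tumors thus lay above all 12 others, and the gene was 10.4-fold higher (95% interval 5.84 to 18.4, edgeR adjusted p = 0.000903). Only 4 of the 12 other tumors reached the level that the filter on low counts asks for. Cap1, an actin-binding protein gene, lay at 910, 641, 1037 and 399 CPM in the same 4 tumors, against 161 to 363 CPM in the other tumors (median 237), a 3.01-fold difference (2.16 to 4.18, edgeR adjusted p = 0.005). Ppt1, which encodes a lysosomal enzyme that removes palmitate from proteins, lay at 247, 149, 252 and 80.1 CPM, against 46.6 to 95.5 CPM in the other tumors (median 74.0). For Ppt1 the groups overlapped, since sgp130_6697T1 lay inside the range of the other tumors (log2 fold change 1.28 ± 0.24 SE, edgeR adjusted p = 0.039).

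On the other side, Trit1, Bmp8b and Ppie follow Mycl1. Trit1, a tRNA-modifying enzyme gene, lay at 84.3, 36.9, 167 and 38.9 CPM in sgp107_6627T2, sgp107_6629T2, sgp130_6638T4 and sgp130_6697T1, against 10.2 to 26.7 CPM in the other tumors (median 17.5), and was 4.62-fold higher (95% interval 3.07 to 6.95, edgeR adjusted p = 0.002). Bmp8b, which encodes a bone morphogenetic protein ligand, lay at 13.1, 13.4, 21.2 and 34.99 CPM, against 0.174 to 10.2 CPM (median 2.69), and its log2 fold change was 2.48 ± 0.44 SE (edgeR adjusted p = 0.029). Ppie, a cyclophilin of the spliceosome, lay at 79.6, 81.0, 283 and 67.3 CPM, against 21.8 to 47.9 CPM (median 32.1), and was 3.69-fold higher (2.56 to 5.32, edgeR adjusted p = 0.003). In these 3 genes each Mycl1-high tumor exceeded each other tumor. Strand use in counting was not stated, so reads from overlapping genes, also of Mycl1 and its nearest neighbours, cannot be told apart.

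Pabpc4, a cytoplasmic poly(A)-binding protein gene that lies 8 genes from Mycl1, lay at 192, 285, 906 and 118 CPM in sgp107_6627T2, sgp107_6629T2, sgp130_6638T4 and sgp130_6697T1. In the other tumors it lay at 38.0 to 71.6 CPM (median 49.2). The groups did not overlap, and the difference was 6.78-fold (95% interval 4.23 to 10.9, edgeR adjusted p = 0.000903). Neighbours that did not pass were Oxct2b, with 0.944 to 1.72 CPM in Mycl1-high tumors and at most 0.963 CPM in the others, Hpcal4 (log2 fold change 0.54 ± 0.90 SE) and Heyl, a NOTCH target gene (0.51 ± 0.33 SE). Heyl lay at 9.90, 19.2, 34.5 and 6.16 CPM in the Mycl1-high tumors, against 6.56 to 17.6 CPM in the other tumors.

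**Figure D2:**
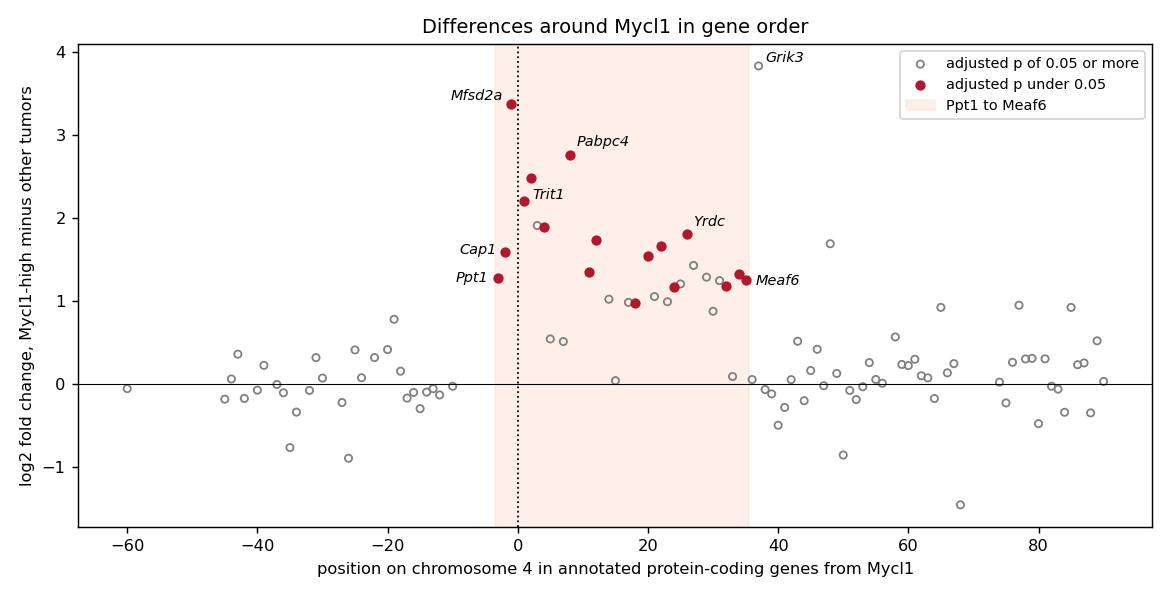
Log2 fold change between Mycl1-high and other tumors (vertical axis) by position in gene order from Mycl1 on chromosome 4 (horizontal axis, annotated protein-coding genes), with filled points for an adjusted p under 0.05 and the shaded band from Ppt1 to Meaf6. All 31 tested genes in the band lie above 0, between 0.04 and 3.38, and the genes beyond it scatter around 0 except for a few such as Grik3.

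Past the 10 nearest genes the difference went on to Meaf6, the 35th gene on that side. The bounds of this run, Ppt1 and Meaf6, were set after the values were seen, and the counts within it are a description. It spans 38 annotated genes besides Mycl1, of which 37 had a row and 31 were tested. All 31 had a log2 fold change above 0, with a median of 1.28, and 17 were called (54.8%, against 0.141% over all genes). In 10 of the 31 each Mycl1-high tumor exceeded each other tumor, as in 7 of the 15530 tested genes outside the run (17 in all, 0.109%).

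Beyond both ends of the run the genes did not pass. The bounds were set at called genes after the values were seen, so these values are a description and not a test of the ends. Rlf, the first tested gene before Ppt1 and 10 genes from Mycl1, had a log2 fold change of -0.03 ± 0.13 SE, with 88.2, 80.0, 84.8 and 126 CPM in the Mycl1-high tumors against 75.3 to 130 CPM in the others. Zc3h12a, the first gene after Meaf6, had a log2 fold change of 0.05 ± 0.29 SE, and Mrps15 -0.12 ± 0.14 SE. Among the 20 gene positions beyond each edge, 0 genes were called, and the median log2 fold changes were -0.06 over 11 tested genes on the Rlf side and 0.01 over 20 tested genes on the Zc3h12a side. Grik3, a kainate receptor subunit gene next to Zc3h12a, lay at 89.4, 8.59, 4.47 and 163 CPM in sgp107_6627T2, sgp107_6629T2, sgp130_6638T4 and sgp130_6697T1, against 0.21 to 43.5 CPM in the others (median 0.703), and did not pass (edgeR adjusted p = 0.99). The other tumor with 43.5 CPM of Grik3 was sgp107_6627T1, of the same mouse as sgp107_6627T2, and sgp107_6629T1, of the same mouse as sgp107_6629T2, followed with 37.8 CPM.

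The called genes of the run have varied roles. Sf3a3, a subunit of the U2 particle of the spliceosome, lay at 232, 322, 879 and 175 CPM in sgp107_6627T2, sgp107_6629T2, sgp130_6638T4 and sgp130_6697T1, against 79.6 to 194 CPM in the other tumors (median 112), with sgp130_6697T1 inside their range (log2 fold change 1.66 ± 0.26 SE, edgeR adjusted p = 0.011). Gnl2, a nucleolar GTPase of large ribosomal subunit assembly, lay at 239, 347, 395 and 194 CPM, against 99.2 to 180 CPM (median 120), and each Mycl1-high tumor exceeded each other tumor (log2 fold change 1.18 ± 0.17 SE, edgeR adjusted p = 0.008). Rragc, a Rag GTPase that recruits mTORC1 to lysosomes, lay at 209, 259, 377 and 159 CPM, against 96.6 to 183 CPM (median 117; 0.97 ± 0.18 SE, edgeR adjusted p = 0.038), with sgp130_6697T1 inside the range of the others. Yrdc, a tRNA-modifying enzyme gene, was higher by 1.80 ± 0.27 SE on the log2 scale (edgeR adjusted p = 0.009). For Yrdc, sgp107_6627T2 (115 CPM) and sgp130_6697T1 (85.6 CPM) lay inside the range of the others, which reached 122 CPM. Meaf6, a subunit of histone acetyltransferase complexes, was higher by 1.25 ± 0.19 SE (0.010).

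Further called genes of the run were Macf1, Utp11l, Mtf1 and the unnamed model D830031N03Rik. Macf1, a linker of microtubules and actin, lay at 440, 531, 1037 and 449 CPM in sgp107_6627T2, sgp107_6629T2, sgp130_6638T4 and sgp130_6697T1, against 155 to 373 CPM in the other tumors (median 221). The groups did not overlap for Macf1 (log2 fold change 1.35 ± 0.23 SE, edgeR adjusted p = 0.026). On the log2 scale Utp11l, of small ribosomal subunit assembly, was higher by 1.54 ± 0.28 SE (edgeR adjusted p = 0.035), and Mtf1, a metal-sensing transcription factor, by 1.17 ± 0.20 SE (0.026). For Utp11l, sgp130_6697T1 lay at 35.7 CPM, inside the range of the others, which reached 38.7 CPM. For Mtf1, sgp107_6627T2 (58.8 CPM) and sgp130_6697T1 (59.5 CPM) lay inside it, with the others up to 66.2 CPM. D830031N03Rik, next to Macf1 in gene order, was higher by 1.74 ± 0.29 SE (0.021). The 14 tested genes of the run that did not pass include Maneal (1.43 ± 0.27 SE, edgeR adjusted p = 0.053), the mitotic gene Cdca8 (1.29 ± 0.31 SE, 0.284) and Mycbp, which encodes a MYC-binding protein (0.98 ± 0.31 SE, 0.907).

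**Figure D3:**
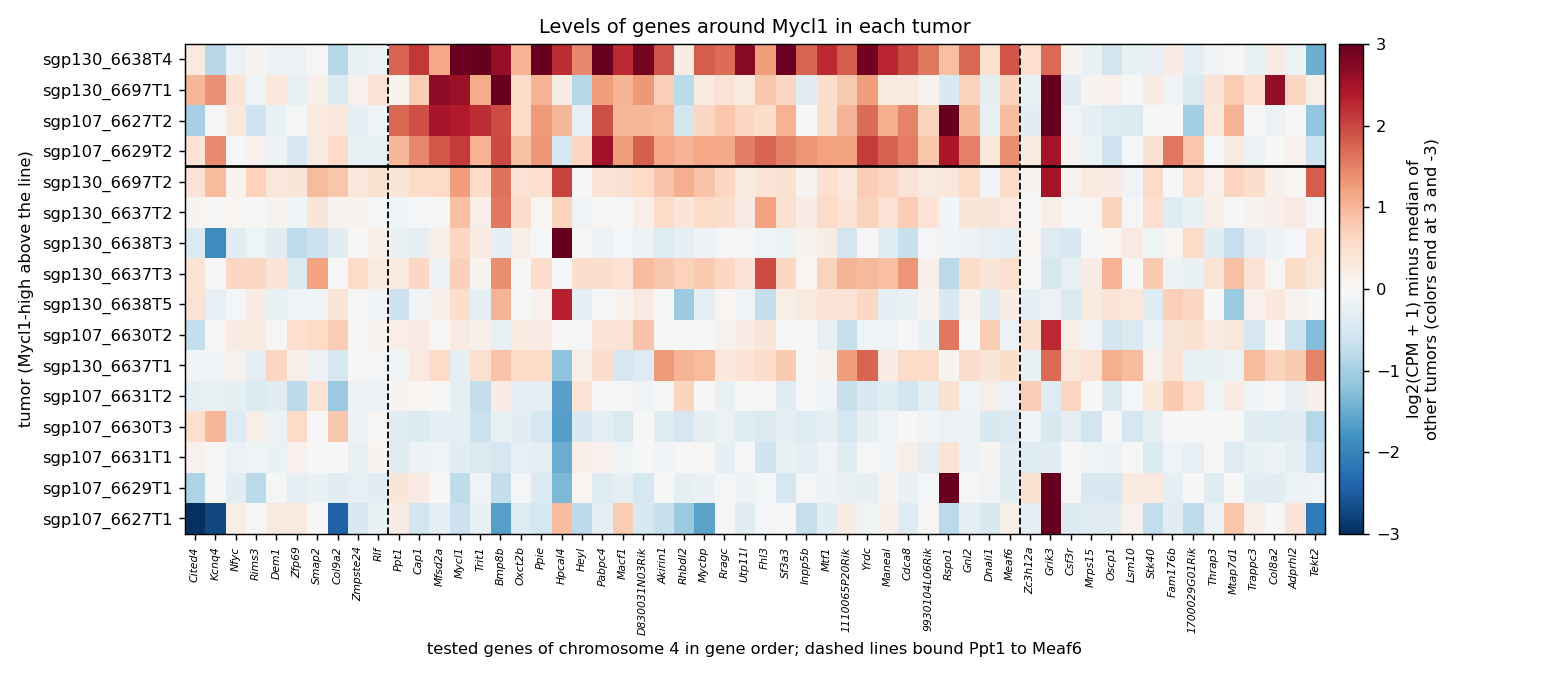
Level of tested genes around Mycl1 in each tumor, as log2(CPM + 1) minus the median of the 12 other tumors (color), with genes in chromosome order (horizontal axis), tumors down the page with the Mycl1-high tumors above the line, and dashed lines at Ppt1 and Meaf6. Mycl1 itself, which chose the groups, is shown in its place. Across the run sgp130_6638T4 has the deepest color, and in sgp130_6697T1 the genes of the run are deepest at Bmp8b and Mfsd2a. Beyond the run, Grik3 lies past the end of the colors in the Mycl1-high tumors sgp130_6697T1, at 6.60, and sgp107_6627T2, at 5.74. It also does so in the other tumors sgp107_6627T1, at 4.72, and sgp107_6629T1, at 4.52.

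The 4 Mycl1-high tumors differed in how far and how strongly the run stood out. As the median over the 31 genes of log2(CPM + 1) minus the median of the 12 other tumors, the difference was 1.88 in sgp130_6638T4, 1.33 in sgp107_6629T2, 0.99 in sgp107_6627T2 and 0.63 in sgp130_6697T1. Among the 12 other tumors it ran from -0.33 in sgp107_6630T3 to 0.55 in sgp130_6637T3, so sgp130_6697T1 lay just above their range and the other 3 Mycl1-high tumors farther above it. Next highest among the other tumors were sgp130_6637T1 (0.53), sgp130_6697T2 (0.49) and sgp130_6637T2 (0.37). Over 907 tested genes of the rest of chromosome 4 the same median was 0.07 in sgp130_6638T4, -0.04 in both p107 tumors and 0.04 in sgp130_6697T1, and up to 0.29 in the other tumors, in sgp130_6697T2.

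The same order appeared in counts of genes. Of the 31 genes, 26 in sgp130_6638T4 exceeded all 12 other tumors, where 3.93% of all tested genes did. In sgp107_6629T2 it was 24 genes (4.99% of all), in sgp107_6627T2 it was 20 (7.63%) and in sgp130_6697T1 it was 10 (8.75%). Each of the other tumors was also set against the rest of the other tumors. There sgp130_6637T1 had 10 such genes, sgp130_6637T3 had 9, sgp130_6697T2 had 7 and each remaining tumor at most 1. The count of 10 in sgp130_6697T1 was thus also reached in sgp130_6637T1, though against 1 tumor fewer. For the other tumors the share over all tested genes is not given, so these counts are a description. Set against the other tumors of its own mouse, the median over the run was higher by 1.98 in sgp130_6638T4, 1.43 in sgp107_6629T2, 1.03 in sgp107_6627T2 and 0.08 in sgp130_6697T1 on the log2(CPM + 1) scale. The genes higher than in the tumors of the same mouse numbered 30 of 31 in sgp130_6638T4 and in sgp107_6629T2, 31 in sgp107_6627T2 and 18 in sgp130_6697T1. The share of all tested genes higher within a mouse is not given, so the 18 in sgp130_6697T1 is not read as a difference. In sgp130_6697T1, Bmp8b was higher than in sgp130_6697T2 by 1.68 on that scale, Mfsd2a by 2.08 and Pabpc4 by 0.86, while Meaf6 was higher by 0.08, and Ppt1 and Rragc were lower, at -0.25 and -0.20. Without both tumors of this mouse, 25 genes were higher and 0 lower, 20 of them in the run, with a median log2 fold change over the run of 1.57. Copy number of DNA was not analysed here, and the reason for the run of high levels was not tested.

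Promoters were searched for the E-box CACGTG, which MYC-MAX pairs bind and which reads the same on both strands. The RefSeq promoter table of build GRCm38.p6 covers 250 bases before to 50 after each start and matched 17 of the 22 called genes, with 18 promoters. Of these 18, 1 held the motif (5.56%), against 9.33% of 15360 promoters of all tested genes. The gene was Rragc, and its promoter is shown because it is the only one of the called genes with the motif, which is in capitals and begins 112 bases before the gene's start. The window is chr4:123917183-123917482 on the + strand. The counts rest on mm9, and no coordinates were matched between the builds. A match describes the letters and does not show binding.
Rragc promoter: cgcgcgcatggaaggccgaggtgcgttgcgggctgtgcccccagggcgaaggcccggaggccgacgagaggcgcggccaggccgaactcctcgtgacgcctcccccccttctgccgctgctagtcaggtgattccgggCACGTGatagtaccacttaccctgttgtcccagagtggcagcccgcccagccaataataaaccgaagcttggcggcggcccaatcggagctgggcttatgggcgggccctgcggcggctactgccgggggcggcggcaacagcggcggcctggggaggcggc

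Outside the run, 5 genes were called higher, and all were low in most of the other tumors. Tmem132b, a transmembrane protein gene of chromosome 5, lay at 3.04, 4.28, 8.56 and 16.7 CPM in sgp107_6627T2, sgp107_6629T2, sgp130_6638T4 and sgp130_6697T1, against 0.056 to 1.45 CPM in the other tumors (median 0.248). The groups did not overlap, and the log2 fold change was 4.30 ± 0.46 SE (edgeR adjusted p = 0.000903). Tmem132b reached the filter level in 2 of the 12 other tumors, so it was tested through the tumors in which it was high.

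Epha5, an ephrin receptor gene of chromosome 5, lay at 15.4, 1.41, 10.9 and 45.3 CPM in sgp107_6627T2, sgp107_6629T2, sgp130_6638T4 and sgp130_6697T1, against 0.072 to 2.78 CPM in the other tumors (median 0.628; log2 fold change 4.37 ± 0.68 SE, edgeR adjusted p = 0.011). Dcaf12l1, an X-linked gene for a predicted ubiquitin ligase adaptor, lay at 15.3, 0.733, 8.84 and 32.7 CPM, against 0.048 to 2.80 CPM (median 0.348; 4.61 ± 0.78 SE, edgeR adjusted p = 0.021). For both genes sgp107_6629T2 lay inside the range of the others and the remaining 3 Mycl1-high tumors above it. Without sgp130_6697T1 neither passed, with a log2 fold change of 3.47 for Epha5 (edgeR adjusted p = 0.056) and 4.29 for Dcaf12l1 (0.142), and without sgp130_6638T4 the values were 4.55 (0.032) and 4.90 (0.056). Epha5 kept its direction under all 33 alternatives and passed under 23, and Dcaf12l1 under all 32 that tested it and passed under 19.

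Ahsg, which encodes the secreted liver protein fetuin-A, lay at 0.668, 2.58, 1.44 and 53.9 CPM in sgp107_6627T2, sgp107_6629T2, sgp130_6638T4 and sgp130_6697T1, against 0 to 0.870 CPM in the other tumors (median 0.139; log2 fold change 5.36 ± 0.84 SE, edgeR adjusted p = 0.011). Without sgp130_6697T1, the highest tumor, the log2 fold change was 3.02 and did not pass (edgeR adjusted p = 0.208), and 1 of the 12 other tumors reached the filter level. Albumin (Alb), which defines hepatocytes, was at 0 CPM in that tumor and at most 0.056 CPM in any. Gm5088, an unnamed gene model without a place in the gene order, lay at 3.10, 5.63, 19.4 and 3.05 CPM, against 0.387 to 1.83 CPM (median 1.34), and the groups did not overlap (log2 fold change 2.52 ± 0.43 SE, edgeR adjusted p = 0.021).

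**Figure D4:**
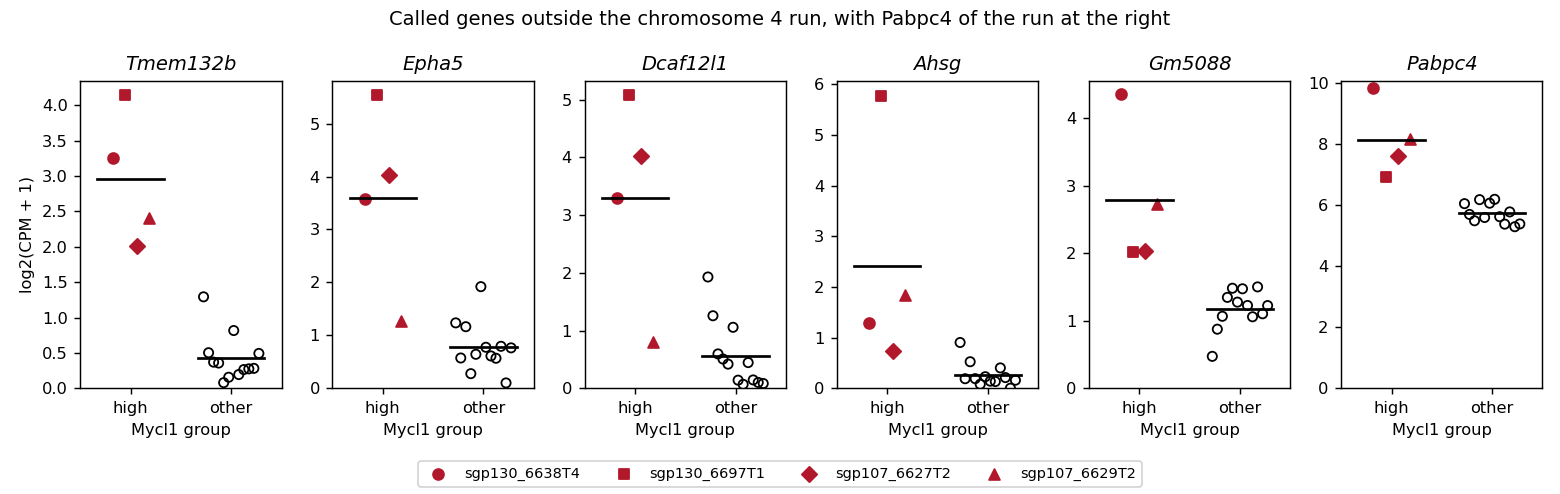
Level of the 5 called genes outside the run, and of Pabpc4 for comparison, as log2(CPM + 1) (vertical axis, from 0) in each tumor, with Mycl1-high tumors as filled red symbols at the left, the other tumors as open circles at the right and a bar at each mean. All 4 Mycl1-high tumors lie above the others for Tmem132b, Gm5088 and Pabpc4, and for Epha5 and Dcaf12l1 sgp107_6629T2 lies among them.

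Several of the genes that DESeq2 alone called were high in 1 tumor. Hnf4a, a transcription factor of liver and gut epithelium, lay at 0.061, 47.8, 0.279 and 0.111 CPM in sgp107_6627T2, sgp107_6629T2, sgp130_6638T4 and sgp130_6697T1, against at most 1.52 CPM in the other tumors. Bnc2, a zinc finger gene, lay at 49.6 CPM in sgp130_6697T1 and at most 0.651 CPM in all other tumors of both groups. Such genes describe 1 tumor each. They were chosen after their values were seen.

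No gene passed as lower in Mycl1-high tumors, and those with the smallest p are given as values. Scnn1g, a subunit of the epithelial sodium channel, lay at 11.5, 20.03, 17.3 and 8.996 CPM in sgp107_6627T2, sgp107_6629T2, sgp130_6638T4 and sgp130_6697T1, against 16.05 to 52.7 CPM in the other tumors (median 31.1). Its log2 fold change was -1.02 ± 0.26 SE (edgeR adjusted p = 0.427), and DESeq2 called it (adjusted p = 0.033). Scnn1b, another subunit of that channel, had 6.14, 17.2, 9.17 and 4.50 CPM against 9.71 to 49.1 CPM, and its log2 fold change was -1.48 with an SE of 0.46 (edgeR adjusted p = 0.873). The other 6 genes named by smallest p, Tmem117, Lrg1, Ttc9, Wdr60, Tmem87a and Ociad2, had log2 fold changes between -0.99 and -0.43. All 8 were lower in each Mycl1-high tumor than in the other tumors of its mouse. They were picked by p in these same tumors, so this describes them and adds no evidence. In 2 of the 15561 tested genes (0.0129%) each Mycl1-high tumor lay below each other tumor. They were Stx8, a vesicle fusion gene, with 14.5 to 17.07 CPM in Mycl1-high and 17.13 to 28.7 CPM in other tumors, and Fabp7, a fatty acid carrier gene, with 0.186 to 0.389 CPM and 0.397 to 1.51 CPM, and neither passed.

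Gene groups that MYC proteins are known to act on showed small differences. Over 51 tested genes of ribosome biogenesis, 0 were called in either direction, 34 had a log2 fold change above 0 and the median was 0.07, where over all genes 46% were above 0 and the median was -0.03. Dkc1, a pseudouridine synthase component of the nucleolus, had the smallest p, with a log2 fold change of 0.27 ± 0.13 SE, followed by the RNA helicase gene Ddx21 (0.29 ± 0.15 SE) and Nolc1 (0.32 ± 0.18 SE), each with an edgeR adjusted p of 0.99. Dkc1 lay at 57.4, 56.4, 74.4 and 60.3 CPM in sgp107_6627T2, sgp107_6629T2, sgp130_6638T4 and sgp130_6697T1, against 38.3 to 68.3 CPM in the other tumors, so the groups overlapped. The summed level of the list was 3590 to 4422 CPM in Mycl1-high tumors, inside the 3289 to 4700 CPM of the others. Gnl2 and Utp11l, called genes of the run with roles in ribosomal subunit assembly, are not among the 51.

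The other lists of synthesis genes held 0 called genes as well. Of 31 tested genes of nucleotide, polyamine and one-carbon synthesis, 0 were called and 27 were above 0, with a median of 0.17. Shmt2, a mitochondrial enzyme of the folate cycle, had a log2 difference of 0.43 with an SE of 0.14 and did not pass (edgeR adjusted p = 0.99). Of 20 aminoacyl-tRNA synthetases 0 were called, 14 were above 0 and the median was 0.09. Of 23 translation factors 0 were called, 16 were above 0 and the median was 0.04. Eif4g1, the scaffold of the cap-binding complex, lay at 368, 378, 370 and 419 CPM in sgp107_6627T2, sgp107_6629T2, sgp130_6638T4 and sgp130_6697T1, against 247 to 327 CPM in the other tumors (median 295). Its groups did not overlap, yet it did not pass in edgeR (log2 fold change 0.39 ± 0.10 SE, adjusted p = 0.291), while DESeq2 called it (adjusted p = 0.004).

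Cell cycle genes were listed by phase. Of 30 genes of the G1/S transition and DNA replication, 29 had a log2 fold change above 0, with a median of 0.19, and 0 were called. Pole, the catalytic subunit of the leading-strand polymerase, lay at 96.2, 88.8, 94.7 and 76.8 CPM in sgp107_6627T2, sgp107_6629T2, sgp130_6638T4 and sgp130_6697T1, against 53.6 to 80.4 CPM in the other tumors (median 68.3), and did not pass (log2 fold change 0.42 ± 0.12 SE, edgeR adjusted p = 0.657). Of 30 genes of G2/M and mitosis 9 were above 0, the median was -0.07 and 0 were called. The highest of them, Cdca8, lies in the run around Mycl1. The difference between these 2 lists was not tested. Of 33 pocket protein, cyclin and CDK inhibitor genes, 0 were called and the median was 0.06.

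Among the 12 genes of the MYC family and MAX network other than Mycl1, 0 were called, 7 were above 0 and the median was 0.04. Myc lay at 7.11, 10.3, 6.47 and 7.11 CPM in sgp107_6627T2, sgp107_6629T2, sgp130_6638T4 and sgp130_6697T1, against 3.92 to 40.9 CPM in the other tumors (median 10.1; log2 fold change -0.54 ± 0.51 SE, edgeR adjusted p = 0.99). Mycn lay at 17.6, 10.7, 3.63 and 15.8 CPM, against 0.728 to 31.4 CPM (median 7.12). The relatives Mlxipl (0.38 ± 0.17 SE) and Mlxip (0.25 ± 0.21 SE) had the smallest p with Myc, and their groups overlapped as well. No Mycl1-high tumor was the highest of all 16 for Myc or Mycn.

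The NFI family of transcription factors had the highest median of the lists, 1.18 over 4 genes, with 4 of 4 above 0 and 0 called. Nfib, known in mouse small cell lung cancer for driving metastatic spread, lay at 1183, 389, 453 and 4226 CPM in sgp107_6627T2, sgp107_6629T2, sgp130_6638T4 and sgp130_6697T1, against 171 to 1737 CPM in the other tumors (median 283). Only sgp130_6697T1 lay above all others, and the highest of the other tumors was sgp107_6627T1. Between the groups, Nfib was 4.01-fold higher in Mycl1-high tumors (95% interval 1.54 to 10.4) and did not pass (edgeR adjusted p = 0.907). Nfix lay at 132, 61.5, 25.9 and 258 CPM, against 7.68 to 283 CPM (median 20.1), and was highest in sgp107_6627T1 and next in sgp130_6697T1. Nfic had a log2 fold change of 0.45 ± 0.25 SE.

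Nfib lies 347 genes from Mycl1 on chromosome 4, and in sgp130_6697T1 its neighbours were high as well. This stretch, from 6 genes before Nfib to 7 after it, was chosen after its values were seen. Of its 13 tested genes, 12 were higher in sgp130_6697T1 than in all other 15 tumors. Over all tested genes, 8.75% were higher in sgp130_6697T1 than in the 12 tumors that were not Mycl1-high. The share above all 15 is not given. In sgp130_6697T1 the median over the 13 of log2(CPM + 1) minus the median of the 12 other tumors was 1.97. In the remaining Mycl1-high tumors this median was 0.14 in sgp130_6638T4, 0.31 in sgp107_6629T2 and -0.05 in sgp107_6627T2. In the other tumors it was at most 0.71, in sgp130_6697T2 of the same mouse. Mpdz, a scaffold protein gene with PDZ domains, lay at 491 CPM in sgp130_6697T1 and at most 66.3 CPM in all other tumors. Psip1, a chromatin reader gene, lay at 2909 CPM in sgp130_6697T1, 1321 CPM in sgp130_6697T2 and at most 814 CPM in the rest.

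Among neuroendocrine transcription factors, 20 of 24 were above 0, with a median of 0.22 and 0 called. Neurod4, a proneural bHLH factor, lay at 40.3, 0.704, 27.8 and 39.5 CPM in sgp107_6627T2, sgp107_6629T2, sgp130_6638T4 and sgp130_6697T1, against 0 to 15.7 CPM in the other tumors (median 0.298). Thus 3 of the 4 Mycl1-high tumors exceeded all 12 others, and the test did not pass (log2 fold change 5.83 ± 1.21 SE, edgeR adjusted p = 0.107). The other tumor with 15.7 CPM was sgp130_6637T2. Of 31 genes of neuropeptides, granins and the secretory granule, 8 were above 0, the median was -0.24 and 0 were called. The summed level of neuroendocrine transcription factors was 5733 to 9102 CPM in Mycl1-high tumors, against 3233 to 6465 CPM in the others. This list also holds Nfib, and without it the sums were 4779 to 6153 CPM in Mycl1-high tumors, inside the 2976 to 6232 CPM of the others.

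Other lists of tumor cell programs held 0 called genes as well. Epithelial adhesion genes had a median of -0.45, with 3 of 20 above 0 and summed levels of 2110 to 7578 CPM in Mycl1-high against 484 to 7433 CPM in other tumors. Glycolysis and hypoxia genes had a median of -0.22, with 3 of 23 above 0. The median was -0.19 for NOTCH pathway and non-neuroendocrine genes (8 of 23 above 0), -0.13 for antigen presentation by MHC class I (2 of 14), -0.09 for interferon response (8 of 20) and -0.11 for the BCL2 family (6 of 16). Genes of the mesenchymal switch had a median of 0.15, with 11 of 18 above 0.

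Among the markers of other cells in the tumor 0 genes were called, though several lists leaned one way between the groups, and their part in the results was not tested. Endothelial markers had a log2 fold change above 0 in 0 of 18, with a median of -0.21 and summed levels of 473 to 835 CPM in Mycl1-high against 475 to 1258 CPM in other tumors. Lymphocyte markers summed to 10.3 to 42.8 CPM against 9.40 to 921 CPM (1 of 9 above 0, median -0.70), airway markers to 120 to 2695 CPM against 195 to 9224 CPM (1 of 10, -0.48), and alveolar markers to 460 to 1130 CPM against 586 to 1597 CPM (2 of 14, -0.35). Red blood cell markers summed to 4.33 to 43.1 CPM against 4.25 to 582 CPM (0 of 6, -1.64). Fibroblast and pericyte markers summed to 303 to 891 CPM in Mycl1-high and 280 to 691 CPM in other tumors (13 of 18, 0.25), macrophage and neutrophil markers to 239 to 714 CPM and 309 to 687 CPM (10 of 18, 0.09), and mesothelium markers to 24.9 to 180 CPM and 30.2 to 192 CPM (5 of 7, 0.41). The highest of the mesothelium markers, Rspo1, lies in the run around Mycl1. Every tested marker of these lists was above 0 in at least 1 Mycl1-high tumor, and Hbb-b1, a hemoglobin gene, was at 0 in 3 of them. The fibroblast marker Lum, at 9.78, 0.587, 7.30 and 0.278 CPM in the Mycl1-high tumors against 0.048 to 0.795 CPM in the others, came nearest to the threshold (log2 fold change 3.29 ± 0.69 SE, edgeR adjusted p = 0.113). The 5 sex-linked genes had a median of 0.81, with 4 above 0 and 0 called. Xist, which marks female cells, was above 50 CPM in 1 of 4 Mycl1-high and 5 of 12 other tumors, and with this pattern as a covariate 21 genes were higher, 14 of them in the run.

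**Figure D5:**
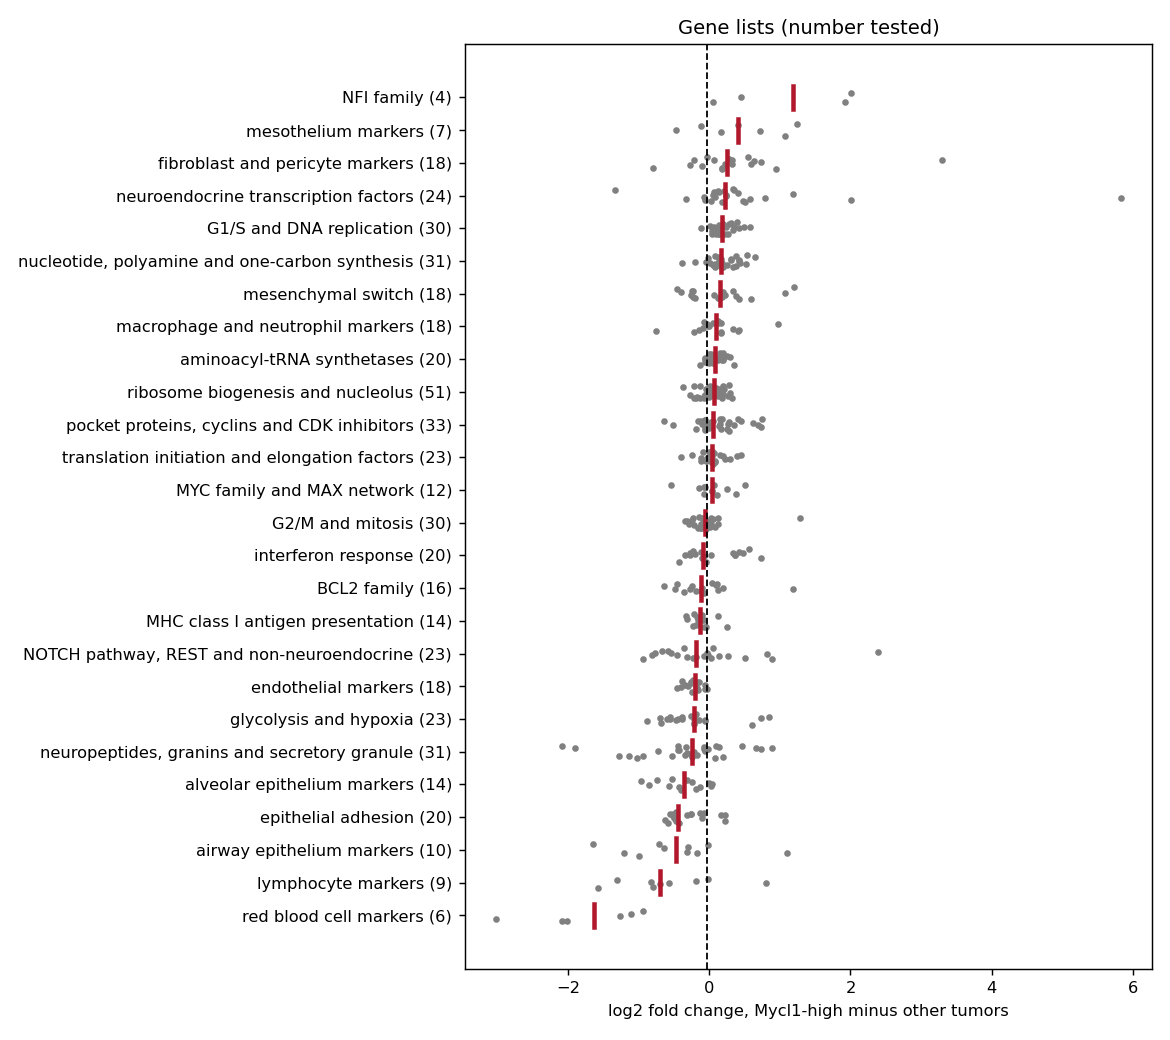
Log2 fold change between Mycl1-high and other tumors (horizontal axis) of each tested gene (grey points) in the lists (rows, with the number tested), with a red bar at each median and the dashed line at the median of all 15561 genes, -0.03. The NFI family has the highest median, 1.18, and red blood cell markers the lowest, -1.64; none of the genes shown passed the test.

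The difference between Mycl1-high and other tumors was also set side by side for the 2 mutated genes, where each holds 2 Mycl1-high and 6 other tumors. Pabpc4 had a log2 fold change of 2.33 among p107 tumors and 3.14 among p130 tumors, Trit1 of 2.11 and 2.29, and Tmem132b of 4.06 and 4.49. Nfib had 0.54 among p107 and 2.95 among p130 tumors. An interaction term found 0 of 16126 genes (0%) whose difference depended on the mutated gene at an edgeR adjusted p under 0.05, and 338 (2.1%) at an unadjusted p under 0.05. Among p107 tumors alone 8 genes were higher, 7 of them in the run, and among p130 tumors alone 0, with 525 higher and 217 lower at an unadjusted p under 0.05. A p that misses the threshold with 2 tumors on one side does not show that the mutated genes act alike.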

How the data were processed

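RNA from 16 mouse tumors was sequenced; per the labels' protocols, tumors from lung were flash-frozen and libraries made with a KAPA mRNA kit. The authors deposited estimated counts for 23224 gene rows, of which 25 carry dates in place of symbols and stayed unnamed. The other deposited table, a signal that from its values was scaled to an equal upper quartile in each tumor, served as an alternative. The submitters' processing notes name RSEM 1.2.12, Bowtie 1.0.1 and mm9. Annotation and strand use were not stated, and near-identical genes share reads.

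Estimated counts were rounded and tested with edgeR 4.0.16 in R 4.3.3 (TMM, filterByExpr, robust quasi-likelihood F test) with the mutated gene as covariate. Mycl1 was removed before Benjamini-Hochberg adjustment, and the threshold was 0.05. An SE is the log2 fold change over the root of F. Genes entered with at least 0.534 CPM in enough tumors. limma 3.58.1 and DESeq2 1.42.0 gave alternatives. Depth was 12700334 to 34620979 estimated counts, so counting error is small beside the spread between tumors for genes well above 1 CPM. This does not hold for genes under about 1 CPM. The called genes Tmem132b, Epha5, Dcaf12l1, Ahsg and Mfsd2a had medians below that level in the other tumors. P-values treat tumors as independent, and the labels call them biological replicates.

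Groups, 27 gene lists (571 entries, 8 without a symbol) and tests were chosen with earlier results of these data known. Named genes are the 20 neighbours of Mycl1, up to 15 called genes in each direction with a log2 fold change of at least 1 and 5 CPM in the higher group, or else the 8 of smallest p, and list members by p; others were chosen after their values were seen. Some genes are counted but not reported here by name or drawn by name. Gene order came from a GRCm38.p6 table, in which 21 of the 22 called genes have a place. Tumors pair by mouse, since a mouse with a Mycl1-high tumor also gave others; deviations of 11 pairs from the same mouse correlated by 0.098 on average, and those of different mice by -0.181. The main test was checked on simulated counts, with tumors drawn independently and no mouse effect. Of 100 genes changed by a log2 fold change of 1, 35% were recovered, and of 100 changed by 2, 81%. Among the unchanged genes, 3 were called. A list with 0 called genes therefore does not show that changes of this size were absent.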

Additional observations from a re-analysis of the deposited data

Results flagged for a closer look

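Among the 4 Mycl1-high tumors, the highest or lowest of 45 sets of values was examined, and 6 had a tumor far from the other 3 (Dixon's test at 95%); chance gives about 1 in 20, here 2.25. In sgp130_6638T4, Ppie lay at 283 CPM with the nearest tumor at 81.0 CPM, Macf1 at 1037 CPM with the nearest at 531 CPM, and Gm5088 at 19.4 CPM with the nearest at 5.63 CPM. Ahsg lay at 53.9 CPM in sgp130_6697T1, and the next was 2.58 CPM. Myc lay at 10.3 CPM in sgp107_6629T2 against 7.11 CPM in the nearest. Tmem87a was lowest in sgp107_6627T2, at 43.9 CPM, with the nearest at 51.1 CPM.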

How the results depend on the processing

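Called higher genes numbered 22, and 51 under DESeq2, 12 in voom without the mouse, 6 at a Mycl1 threshold of 200 CPM (5 tumors, with sgp130_6697T2), 8 in p107 tumors alone, 0 in p130 tumors alone (525 unadjusted), 7 in the normalized table with limma and 0 under the replicate block by mouse (481 unadjusted), where the lower genes also stayed at 0. They ran from 7 to 29 without 1 tumor: 7 without sgp130_6638T4, 13 without sgp130_6638T5 and 14 without sgp107_6630T3. Called lower genes numbered 7 under DESeq2 and 0 to 1 without 1 tumor; the 1 was Aspg, without sgp107_6629T2. Interaction genes numbered 0 to 6 without 1 tumor, the 6 without sgp130_6638T4. The causes were not tested, beyond fewer tumors in the subsets. Leaving out both tumors of sgp130_6697T1's mouse, the Xist covariate and TMM without the run were chosen after seeing the data. These and the remaining alternatives gave 16 to 27 higher and 0 lower. The median over the run was 1.08 to 1.57 under all of them, except 0.50 per log2 unit of Mycl1. All 22 called genes kept their direction under every alternative that tested them. Depth limits genes under about 1 CPM.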
